A study of Mus musculus with 8 samples.

Results

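Acute phase serum proteins are secreted mainly by hepatocytes, and their amounts in blood shift when tissue is injured or infected. The 10 genes described here, out of 21252 gene symbols on the arrays, are the serum amyloid A genes Saa1, Saa2, Saa3 and Saa4, the orosomucoid genes Orm1, Orm2 and Orm3, the haptoglobin gene Hp, the lipocalin gene Lcn2 and the serum amyloid P gene Apcs. They were chosen as a named family and not by a rule on their values, though with earlier results of these data known. Every non-control probe whose gene name or transcript accession maps to 1 of these symbols was used. This gave 22 probes of 149782, 12 with an Agilent catalogue name and 10 with a custom name.

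RNA came from the livers of 8 male mice, 1 Agilent one-colour (Cy3) array per mouse. The 4 oxaliplatin mice received the platinum drug oxaliplatin by intraperitoneal injection once weekly for 6 weeks, and the series presents them as modelling hepatic sinusoidal obstruction syndrome, in which the liver's smallest vessels are damaged. The 4 control mice are labelled normal. Strain, age, dose and any vehicle injection are not given in the sources used here. The labels call the samples biological replicates, and all tests rest on 4 animals per group.

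In the acute phase response, cytokines released at a site of injury reach the liver, where interleukin-6 acts through the factor STAT3 and interleukin-1 through NF-kappaB, and C/EBP factors cooperate with both. Hepatocytes then raise the transcription of serum amyloid A, orosomucoid, haptoglobin and, in mice, serum amyloid P, and lower that of albumin and transthyretin. Lipocalin-2 is also a granule protein of neutrophils, and Saa3 in mice is expressed by macrophages and adipocytes besides the liver.

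All values are log2 signals relative to the array's 75th percentile of non-control probes, and a difference is oxaliplatin minus control. The 22 member probes were well above background on all 8 arrays and none was saturated. Per array, 27.2% to 40.9% of all probes passed the same background flag. The lowest share was on oxaliplatin replicate 2, and the next lowest was 34.3%, on oxaliplatin replicate 1. The hepatocyte marker Alb had a level of 11.18, 11.19, 11.20 and 11.30 on the oxaliplatin arrays and 10.72, 10.71, 10.64 and 10.57 on the control arrays, as a liver label requires. The slides and scans each held 1 group, so an effect of either cannot be told apart from the treatment. By the names of the deposited files, oxaliplatin replicates 3 and 4 and the 4 controls share 1 run name, and oxaliplatin replicates 1 and 2 have another. Directions follow the group labels, and the 3 targets of p53 examined, Phlda3, Cdkn1a and Ccng1, which DNA damage induces, were lower on the arrays labelled oxaliplatin. Phlda3, a p53 target, was at 1.17, 0.66, 0.79 and 0.72 on oxaliplatin arrays and at 4.20, 4.14, 4.57 and 4.69 on control arrays. Cdkn1a, a p53-induced inhibitor of the cell cycle, differed by -3.61 ± 0.66 (SE, n = 4 per group, limma adjusted p = 0.0117) and Ccng1, a cyclin that p53 induces, by -1.58 ± 0.11 (limma adjusted p = 0.000889). Whether the group labels were exchanged was not tested.

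Lcn2 was measured by both a catalogue and a custom probe, whose sequences overlap. The probes are shown because both carry the one difference among the members that passed the test, with capitals for the 22 letters that the end of the catalogue probe shares with the start of the custom probe. The catalogue probe lies on the minus strand of mm9 at chr2:32241037-32241281, an interval of 245 bases for 60 letters. No position is given for the custom probe.
Lcn2 catalogue probe: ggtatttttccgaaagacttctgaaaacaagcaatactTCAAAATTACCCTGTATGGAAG
Lcn2 custom probe: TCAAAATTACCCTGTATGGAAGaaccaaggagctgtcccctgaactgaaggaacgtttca

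The orosomucoid genes lie next to each other on chromosome 4, and their catalogue probes are shown because they target different letters while the custom probes of the 3 genes are near-copies. The Orm1 probe maps to chr4:63006483-63007090, the Orm2 probe to chr4:63024979-63025038 and the Orm3 probe to chr4:63018910-63020393 (mm9, plus strand). The Saa3 probe, at chr7:53968031-53968090 on the minus strand, is added because the file pairs it with a transcript of Saa1 as well.
Orm1 catalogue probe: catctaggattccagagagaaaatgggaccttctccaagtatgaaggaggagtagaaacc
Orm2 catalogue probe: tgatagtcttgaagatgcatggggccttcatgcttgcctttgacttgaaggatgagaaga
Orm3 catalogue probe: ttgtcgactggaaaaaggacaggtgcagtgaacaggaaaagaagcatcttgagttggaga
Saa3 catalogue probe: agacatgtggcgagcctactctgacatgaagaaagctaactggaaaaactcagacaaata

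RefSeq promoter sequences (build GRCm38.p6) were at hand for 8 of the 10 members, all but Orm1 and Hp. A C/EBP motif, TTGCNNAA on either strand, was found in 7 of these 8 windows of 300 bases, from 250 before to 50 after the gene's start, against 10.8% of all 27025 promoters in the table. The windows are not independent, because those of Saa1 and Saa2 had 287 of 299 aligned letters in common and those of Orm2 and Orm3 had 264 of 295. Apcs, the one promoter of the 8 with no C/EBP match, was the only one with the STAT3 motif TTCNNNGAA, which 8.47% of all promoters held. A 10-letter NF-kappaB form was in none of the 8 and in 1.17% of all promoters. None of the 8 held matches of different motifs. The C/EBP matches are shown in capitals with up to 20 letters on either side, each on the strand of its gene.
Saa1 (- strand), chr7:46743135-46743182: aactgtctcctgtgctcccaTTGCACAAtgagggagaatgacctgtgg
Saa2 (+ strand), chr7:46751630-46751677: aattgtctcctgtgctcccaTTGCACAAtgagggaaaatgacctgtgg
Saa3 (- strand), chr7:46715748-46715795: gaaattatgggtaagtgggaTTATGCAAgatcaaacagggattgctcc
Saa4 (- strand), chr7:46732821-46732853: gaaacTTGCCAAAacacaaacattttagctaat
Saa4 (- strand), chr7:46732628-46732675: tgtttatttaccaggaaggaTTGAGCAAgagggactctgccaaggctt
Orm2 (+ strand), chr4:63362309-63362356: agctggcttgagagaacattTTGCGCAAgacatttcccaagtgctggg
Orm3 (+ strand), chr4:63356017-63356064: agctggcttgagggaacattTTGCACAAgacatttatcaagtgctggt
Lcn2 (- strand), chr2:32387928-32387975: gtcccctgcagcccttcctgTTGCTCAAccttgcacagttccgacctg

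The Lcn2 match began 216 bases before the gene's start, and the Orm2 and Orm3 matches 120 and 121 bases before it. The 250 letters before the start of Lcn2, at chr2:32387740-32387989 (GRCm38.p6, minus strand), are shown whole with the C/EBP match in capitals, since Lcn2 is the member that passed the test.
Lcn2 promoter: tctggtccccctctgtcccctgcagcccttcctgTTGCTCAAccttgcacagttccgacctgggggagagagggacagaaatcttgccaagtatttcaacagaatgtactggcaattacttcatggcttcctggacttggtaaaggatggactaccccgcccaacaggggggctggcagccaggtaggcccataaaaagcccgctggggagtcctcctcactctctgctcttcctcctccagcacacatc

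Of the 10 members, 1 was lower on the oxaliplatin arrays, none was higher and 9 did not pass, when each gene was represented by its brightest probe and limma's p was adjusted over all 13913 tested genes at a threshold of 0.05. That member was Lcn2, a secreted protein that binds bacterial siderophores. Over all tested genes, 11.6% were lower and 6.99% were higher, so 1 of 10 members is close to the share in the whole table and is not a result about the family. The split of called genes moved with the scaling: 973 were higher and 1617 lower here, 680 and 2533 with normexp, 1120 and 1122 with quantile normalization, 1434 and 935 on detected probes, and 1073 and 1102 in the series matrix values. Centred on the median it was 1125 higher and 1232 lower over the tested probes, and 230 higher and 9688 lower over all probes. The members' median difference was -0.34, with 8 of 10 below 0, and the median over all tested genes was -0.09. Over single probes, 2 of 22 were called lower, both of Lcn2, against 11.0% of all 54636 tested probes. These were also the 2 of 22 probes whose groups did not overlap, where 27.0% of all tested probes had groups that did not overlap.

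**Figure D1:**
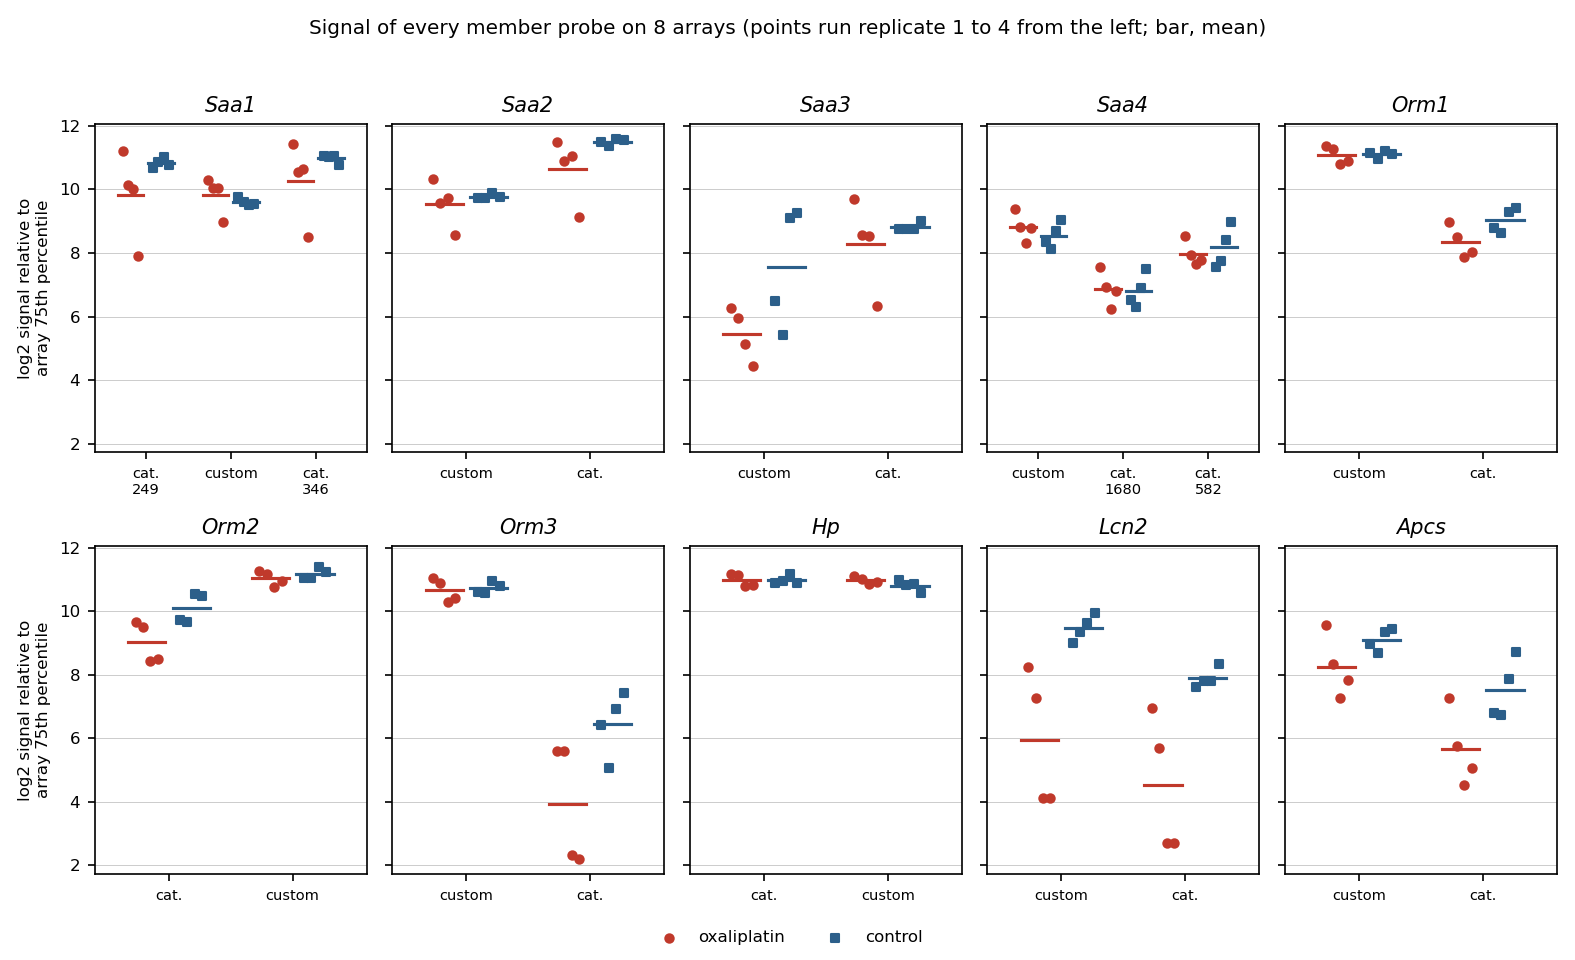
Log2 signal relative to the array's 75th percentile (vertical axis) at each of the 22 member probes, 1 panel per gene, with oxaliplatin arrays as circles left of control arrays as squares, replicates 1 to 4 from the left and a bar at each group's mean. Both Lcn2 probes had every oxaliplatin array below every control array, and Hp varied little.

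Lcn2 had levels of 8.26, 7.27, 4.11 and 4.13 at its custom probe on oxaliplatin arrays 1 to 4, against 9.02, 9.35, 9.63 and 9.96 on control arrays 1 to 4. The groups did not overlap, and oxaliplatin replicates 3 and 4 lay far below replicates 1 and 2. The difference was -3.55 ± 0.92 (SE, n = 4 per group), an 11.7-fold lower signal, with a limma adjusted p = 0.0339 and a 95% interval from -5.67 to -1.43. The exact permutation test of the 8 arrays, two-sided, gave p = 0.0286, the smallest that 4 against 4 arrays allow. Groups that do not overlap always give this p, so it adds nothing to the levels above, and 27.0% of all tested probes had such groups.

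The Lcn2 catalogue probe was at 6.96, 5.70, 2.72 and 2.70 on the oxaliplatin arrays and at 7.61, 7.81, 7.82 and 8.34 on the control arrays. Its difference was -3.37 ± 0.90 (SE, n = 4 per group), with an adjusted p = 0.0352 over all tested probes. Within each array the catalogue probe's distance from the custom probe differed between the groups by 0.17 ± 0.10 (SE, limma adjusted p = 0.230).

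The size of the Lcn2 difference depended on which oxaliplatin arrays were used. On the 6 arrays of 1 run name, which hold oxaliplatin replicates 3 and 4 and all controls, it was -5.37 (limma adjusted p = 0.00319). A covariate for the run name gave the same -5.37 (limma adjusted p = 0.00164). The other run name holds no control array, so the 2 differences are equal by construction. Without oxaliplatin replicates 3 and 4, an alternative chosen after seeing the data, it was -1.73 (limma adjusted p = 0.0708). The call ended when any 1 control was left out and when oxaliplatin replicate 3 or 4 was, with differences from -3.71 to -2.94 and limma adjusted p from 0.0542 to 0.0830. It held without oxaliplatin replicate 1 (-4.32, limma adjusted p = 0.0198) and without replicate 2 (-3.99, limma adjusted p = 0.0445).

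**Figure D2:**
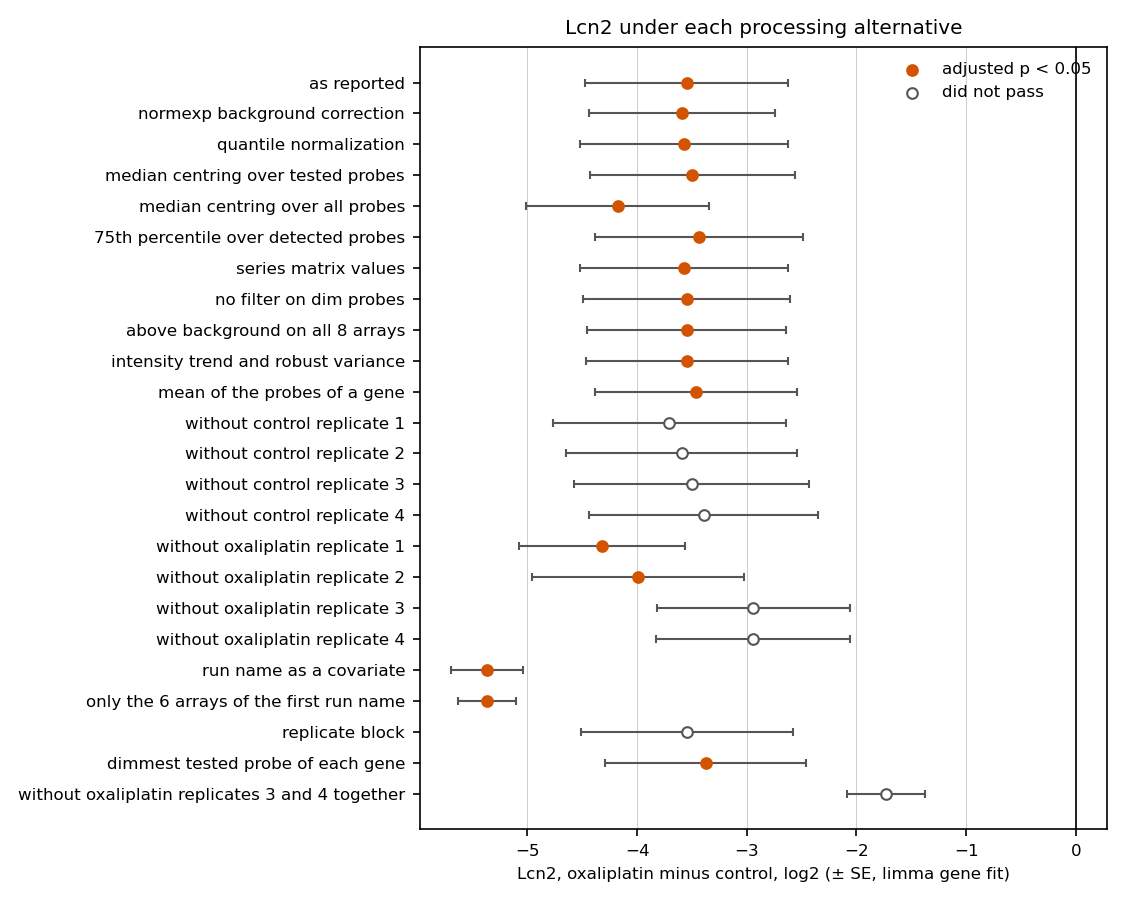
Difference of Lcn2, oxaliplatin minus control in log2 with its SE (horizontal axis), as reported and under each alternative (rows), with filled points where the adjusted p was below 0.05. All values lie between -5.37 and -1.73, and the smallest in size came without oxaliplatin replicates 3 and 4.

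Markers of neutrophils had their lowest summed level on the arrays where Lcn2 was lowest, but single markers did not all follow this order. Of 14 markers 11 were tested, none passed in either direction, and 9 had a negative difference, with a median of -0.84. Their summed level, on a linear scale relative to the 75th percentile, was 216, 360, 41.6 and 103 on oxaliplatin arrays 1 to 4 and 433, 227, 241 and 498 on control arrays 1 to 4. The groups overlapped, and the 2 lowest sums were on oxaliplatin replicates 3 and 4. On this linear scale the brightest markers weigh most. On oxaliplatin replicate 1 the brightest was Prtn3, at 6.96, 4.86, 1.77 and 2.45 on oxaliplatin arrays 1 to 4, so the order of the sums leans on it. S100a8, a calcium-binding protein of neutrophils, had a difference of -1.68 ± 0.74 (SE, n = 4 per group, limma adjusted p = 0.143), and S100a9, its partner, -1.41 ± 0.69 (adjusted p = 0.182). Both were lower on oxaliplatin replicate 1, at 3.99 and 5.32, than on replicate 4, at 4.17 and 5.58. Ly6g, a surface marker of mouse neutrophils, had -0.84 ± 0.39 (limma adjusted p = 0.161) and the resistin-like gene Retnlg -1.57 ± 0.69 (limma adjusted p = 0.141). Ly6g and Retnlg were higher on oxaliplatin replicate 1, at 4.79 and 2.32, than on replicate 4, at 4.47 and 2.14. The granule genes Camp (1.03 ± 0.66, limma adjusted p = 0.297) and Ltf (0.70 ± 0.99, limma adjusted p = 0.648) went the other way. Camp was above background on 4 of 4 oxaliplatin and 2 of 4 control arrays, and Ltf on 2 of 4 and 3 of 4. The granule enzymes Mpo and Elane and the receptor Cxcr2 were too dim to be tested. The part of neutrophils in the Lcn2 result was not tested, and fewer cells of a type cannot be told apart from less RNA per cell in whole liver.

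The 3 genes whose deviations from their group's mean over the 8 arrays were most like those of Lcn2 were Ikzf1 (r = 0.98), Pdzrn3 (r = 0.97) and Rnase4 (r = 0.97). These correlations over 8 arrays are a description, and the arrays share slide and scan within a group.

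The orosomucoid genes encode the acid glycoproteins of serum, which bind drugs and lipids. At their brightest probes, all custom, none passed the test: Orm1 by -0.03 ± 0.15, Orm2 by -0.14 ± 0.14 and Orm3 by -0.07 ± 0.18 (SE, n = 4 per group, limma adjusted p from 0.523 to 0.918). The 95% intervals were -0.36 to 0.31 for Orm1, -0.47 to 0.19 for Orm2 and -0.49 to 0.35 for Orm3. They hold for these probes only: the catalogue probes below differed by -0.68, -1.07 and -2.53, outside them. The custom signals, like those of Hp, lie in the upper range of these arrays, though none was saturated. These custom probes were 91.5% to 98.2% identical to each other over their overlap of 57 to 59 letters, so the 3 values cannot be read as separate genes. The direction of these small values turned for Orm1 and Orm3 under other scalings, given below under the processing.

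The catalogue probes, shown above, gave more negative values. Orm3 was at 5.62, 5.60, 2.34 and 2.20 on oxaliplatin arrays 1 to 4, against 6.42, 5.07, 6.93 and 7.44 on control arrays 1 to 4. As for Lcn2, oxaliplatin replicates 3 and 4 were the lowest, but here control replicate 2 lay below oxaliplatin replicates 1 and 2. The difference was -2.53 ± 0.91 (SE, n = 4 per group), which did not pass (limma adjusted p = 0.0832). It was -4.19 on the 6 arrays of 1 run name (limma adjusted p = 0.0239). A covariate for the run name gave by construction the same -4.19 (limma adjusted p = 0.0153).

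Orm2 at its catalogue probe was at 9.66, 9.52, 8.43 and 8.48 on oxaliplatin arrays, against 9.72, 9.65, 10.53 and 10.49 on control arrays. The groups met at oxaliplatin replicate 1 and control replicate 2. The difference of -1.07 ± 0.35 (SE, n = 4 per group) did not pass (limma adjusted p = 0.0617), though it did under 7 of the alternatives, among them quantile normalization (-1.22, limma adjusted p = 0.0472) and a covariate for the run name (-1.64, limma adjusted p = 0.0235). Orm1 at its catalogue probe differed by -0.68 ± 0.28 (SE, n = 4 per group, limma adjusted p = 0.116).

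**Figure D3:**
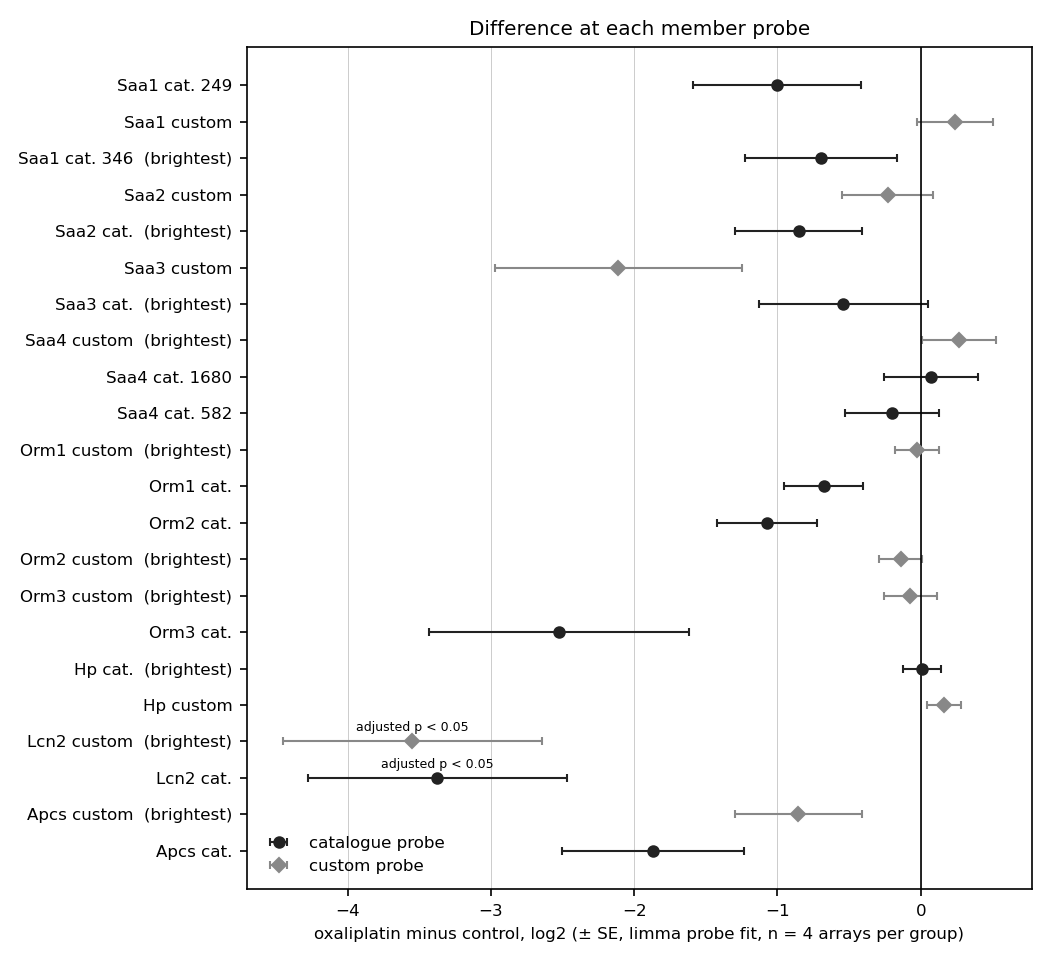
Difference in log2, oxaliplatin minus control, with its SE (horizontal axis) at each of the 22 probes (rows, n = 4 arrays per group), with catalogue probes as black circles and custom probes as grey diamonds. The Lcn2 probes, at -3.55 and -3.37, passed the test, and the catalogue probes of Orm3 at -2.53 and Apcs at -1.87 lay lower than the custom probes of the same genes.

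Over the 12 catalogue probes the median difference was -0.77, and over the 10 custom probes -0.11. To set probes of 1 gene against each other, each other probe was expressed as its distance from the gene's brightest probe within the same array, and this distance was compared between groups by limma over all 15586 such pairs, a test chosen after the values were seen. Among the 12 pairs of members, 4 passed (33.3%), where 22.3% of all pairs did. The distance of the Orm2 catalogue probe differed by -0.94 ± 0.24 (SE, n = 4 per group, limma adjusted p = 0.0271). That of Orm1 differed by -0.65 ± 0.18 (limma adjusted p = 0.0344) and that of Apcs by -1.01 ± 0.30 (limma adjusted p = 0.0426). In Saa2 the catalogue probe is the brightest, and the distance of the custom probe from it differed by 0.62 ± 0.16 (limma adjusted p = 0.0312), so here too the catalogue probe had the more negative difference. Saa3 ran the other way: its custom probe's distance from the catalogue probe differed by -1.57 ± 0.85 (limma adjusted p = 0.211). That catalogue probe is also assigned to a transcript of Saa1, so this pair may not compare 1 gene. The same holds for the pairs of Orm1, Orm2, Orm3 and Saa2 and for the Saa1 custom probe. Their custom probes are near-copies between the orosomucoid genes and between Saa1 and Saa2. Orm3 had the most negative distance, -2.45 ± 0.78, which did not pass (limma adjusted p = 0.0552). Each of the 4 calls was lost under between 7 and 12 of 16 alternatives. The custom probes held the polyadenylation hexamer AATAAA in 8 of 10 cases, as against 0 of 12 catalogue probes. Whether probe position, or signal from the near-copy genes, has a part in the unequal differences was not tested.

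**Figure D4:**
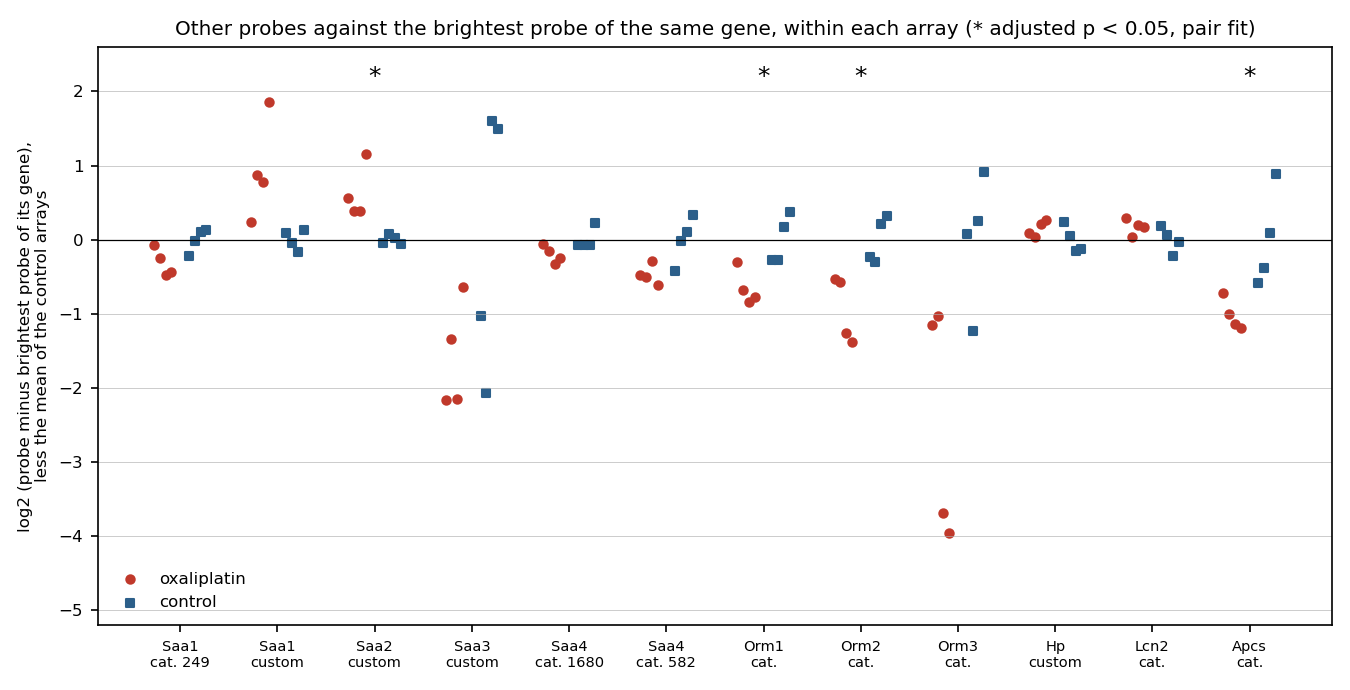
Distance of each other probe of a member from the brightest probe of its gene within each array, in log2 and less the control mean (vertical axis), for the 12 pairs, with oxaliplatin arrays as circles left of control arrays as squares and asterisks at the 4 pairs that passed. The oxaliplatin arrays lay below all controls for Orm1, Orm2 and Apcs and above them for the Saa2 custom probe, and Orm3 had 2 oxaliplatin arrays far below the rest.

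Apcs encodes serum amyloid P component, a pentraxin that in mice takes the acute phase role that C-reactive protein has in humans. Its custom probe was at 9.58, 8.34, 7.26 and 7.84 on oxaliplatin arrays and at 8.97, 8.69, 9.35 and 9.43 on control arrays. Oxaliplatin replicate 1 was the highest of all 8 arrays and the other 3 oxaliplatin arrays were the lowest. The difference was -0.85 ± 0.45 (SE, n = 4 per group, limma adjusted p = 0.206). Without oxaliplatin replicate 1 it was -1.30 (limma adjusted p = 0.0346), and on the 6 arrays of 1 run name -1.56 (limma adjusted p = 0.0404). The run name as a covariate gave by construction the same -1.56, which did not pass (limma adjusted p = 0.0529). Without oxaliplatin replicate 3 it was -0.52 (limma adjusted p = 0.417).

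The Apcs catalogue probe, at chr1:174824959-174825018 on the minus strand of mm9, was at 7.28, 5.76, 4.54 and 5.06 on oxaliplatin arrays and at 6.81, 6.72, 7.86 and 8.73 on control arrays. It had the same order of oxaliplatin arrays, with replicate 1 high and replicate 3 lowest. The difference was -1.87 ± 0.64 (SE, n = 4 per group, limma adjusted p = 0.0723). The genes most like Apcs in their deviations over the 8 arrays were Prune2 (r = 0.99), Itih3, an acute phase protein that binds hyaluronan (r = 0.99), and Fgb, the fibrinogen beta chain (r = 0.98).

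Serum amyloid A1 and A2 are the apolipoproteins that rise steeply in acute inflammation and travel on high-density lipoprotein. Saa1 at its brightest probe, a catalogue probe at chr7:53996070-53996129 on the minus strand of mm9, was at 11.44, 10.54, 10.65 and 8.49 on oxaliplatin arrays, against 11.06, 11.02, 11.06 and 10.78 on control arrays. The controls lay close together, and oxaliplatin replicate 4 stood below all of the other arrays. The difference was -0.70 ± 0.54 (SE, n = 4 per group, limma adjusted p = 0.385), with a 95% interval from -1.93 to 0.54. Without oxaliplatin replicate 4 it was -0.10 (limma adjusted p = 0.794). The other Saa1 catalogue probe differed by -1.0 ± 0.58 (limma adjusted p = 0.249), or by -0.36 without oxaliplatin replicate 4, and the custom probe by 0.24 ± 0.26 (limma adjusted p = 0.551).

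Saa2 had its oxaliplatin arrays in the same order. Its catalogue probe was at 11.50, 10.89, 11.04 and 9.13 on oxaliplatin arrays, against 11.49, 11.36, 11.58 and 11.54 on control arrays. The difference was -0.85 ± 0.45 (SE, n = 4 per group, limma adjusted p = 0.207), and -0.35 without oxaliplatin replicate 4 (limma adjusted p = 0.189). Saa1 and Saa2 had the highest correlation of deviations among the 45 pairs of members (r = 0.98 over 8 arrays), and their custom probes shared 57 of 60 letters, so these custom probes cannot be read as separate genes. The genes most like Saa1 were Lcat, which esterifies cholesterol on lipoproteins (r = 0.95), Carf (r = 0.94) and Olfr374 (r = 0.94).

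Saa3 is the serum amyloid A gene of mice that cells other than hepatocytes also express. Its custom probe was at 6.26, 5.96, 5.15 and 4.44 on oxaliplatin arrays and at 6.48, 5.43, 9.09 and 9.25 on control arrays. Control replicates 3 and 4 stood well above the other 6 arrays, control replicate 1 lay just above the highest oxaliplatin array, and control replicate 2 lay among the oxaliplatin arrays. The difference of -2.11 ± 0.86 (SE, n = 4 per group) did not pass (limma adjusted p = 0.117), and it did without control replicate 2 (-2.82, limma adjusted p = 0.0389). The Saa3 catalogue probe differed by -0.54 ± 0.60 (limma adjusted p = 0.552), with oxaliplatin arrays at 9.69, 8.55, 8.55 and 6.33 and control arrays at 8.77, 8.76, 8.74 and 9.01.

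Saa4, the constitutively expressed member of the family, did not pass the test at any of its 3 probes. Its brightest probe differed by 0.27 ± 0.26 (SE, n = 4 per group, limma adjusted p = 0.490), and its catalogue probes by 0.07 ± 0.33 and -0.20 ± 0.33 (limma adjusted p of 0.896 and 0.693).

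Hp encodes haptoglobin, which binds free haemoglobin. It was at 11.17, 11.14, 10.81 and 10.82 on oxaliplatin arrays and at 10.90, 10.96, 11.17 and 10.88 on control arrays at its catalogue probe. The groups overlapped throughout, and the difference was 0.01 ± 0.13 (SE, n = 4 per group, limma adjusted p = 0.970) with a 95% interval from -0.28 to 0.30. The custom probe differed by 0.16 ± 0.12 (limma adjusted p = 0.354). Both signals lie in the upper range of these arrays, though none was saturated, and the sign of the first value turned under 4 other scalings or sources of values. The genes most like Hp were Fam167a (r = 0.98), Kcnj10 (r = 0.98) and Tmem273 (r = 0.97).

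At all 22 probes the mean of oxaliplatin replicates 3 and 4 was below the mean of replicates 1 and 2, an order found at 35.5% of all tested probes. Oxaliplatin replicate 3 or 4 was the lowest of all 8 arrays at 19 of 22 probes, against 17.3% of all tested probes. Oxaliplatin replicate 1 was the highest at 12 of 22 probes, against 10.1% of all tested probes. These counts were chosen after seeing the data and carry no test, and probes of 1 gene and near-copies are not independent. This order runs with the run name, whose part was not tested. The correlations of deviations between members, which ran from 0.18 for Saa1 with Saa4 to 0.98 for Saa1 with Saa2, share this spread between the oxaliplatin arrays.

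Of the signals that induce the members, most genes did not pass. Each list count below stands beside shares of 6.99% higher and 11.6% lower over all tested genes. In the IL-6 and STAT3 list of 14 genes, 13 were tested, 1 was higher, 1 was lower and 11 did not pass, with a median of -0.10. Lifr, the receptor of leukaemia inhibitory factor, was at 6.23, 6.95, 7.17 and 6.88 on oxaliplatin arrays and at 5.24, 5.18, 4.64 and 3.54 on control arrays, a rise of 2.16 ± 0.38 (SE, n = 4 per group, limma adjusted p = 0.0107). Its other 5 tested probes ran from -0.09 to 0.31, and its value was 0.48 with the mean of its probes. Il6ra, the receptor subunit that binds IL-6, fell by 0.91 ± 0.23 (limma adjusted p = 0.0315), and its call was lost under 11 of 23 alternatives. Socs3, the feedback inhibitor of STAT3 signalling, was at 7.05, 5.20, 3.63 and 3.61 on oxaliplatin arrays and at 6.35, 5.08, 6.74 and 7.39 on control arrays, and did not pass (-1.52 ± 0.81, limma adjusted p = 0.211). As for Lcn2, its lowest values were on oxaliplatin replicates 3 and 4. Tyk2, a kinase of cytokine receptors, had 0.20 ± 0.11 (limma adjusted p = 0.234), and Il6 itself was too dim to be tested.

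In the IL-1 and NF-kappaB list all 15 genes were tested, 1 was higher, none was lower and 14 did not pass, with a median of -0.02. Il1b, the gene of interleukin-1 beta, was at 2.37, 4.11, 2.36 and 3.55 on oxaliplatin arrays and at 1.15, 1.51, 1.54 and 0.88 on control arrays. It rose by 1.83 ± 0.40 (SE, n = 4 per group, limma adjusted p = 0.0203) with groups that did not overlap. The call was lost under 5 of 23 alternatives, among them leaving out oxaliplatin replicate 4 and the run name as a covariate. Nfkbia and Tnfaip3, inhibitors that NF-kappaB induces, had -0.43 ± 0.21 (limma adjusted p = 0.172) and -1.02 ± 0.50 (limma adjusted p = 0.174), and Tnfrsf1a, a receptor of TNF, had -0.44 ± 0.26 (limma adjusted p = 0.258).

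None of the 11 tested transcription factors of the acute phase passed in either direction, and their median was 0.06. Cebpb and Cebpd, the C/EBP factors that IL-6 and IL-1 induce, had -0.38 ± 0.17 (SE, n = 4 per group, limma adjusted p = 0.140) and -1.17 ± 0.48 (limma adjusted p = 0.117). Foxa1, a factor of hepatocyte development, had 0.83 ± 0.27 (limma adjusted p = 0.0610), and Creb3l3, a membrane-bound factor of the liver, 0.48 ± 0.17 (limma adjusted p = 0.0891).

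Among all tested genes, 6.99% were higher and 11.6% were lower. Of 24 tested positive acute phase genes outside the family, 4 were higher, none was lower and 20 did not pass, with a median of 0.01. The 4 were Serpina1a, a protease inhibitor (0.38 ± 0.10, limma adjusted p = 0.0315), Fgg, the fibrinogen gamma chain (0.30 ± 0.08, adjusted p = 0.0409), the complement protein C3 (0.32 ± 0.09, adjusted p = 0.0453) and the serpin Serpina3k (0.32 ± 0.09, adjusted p = 0.0475). All are SEs with n = 4 per group, and the 4 values turned negative when arrays were centred on the median of all probes. The calls were lost under 13 of 23 alternatives for Serpina1a, 17 for Fgg and Serpina3k and 19 for C3, which was at -0.90 at its dimmest probe.

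Negative acute phase genes are those whose transcription falls in an acute phase response. Of 14 tested, 8 were higher, 1 was lower and 5 did not pass, with a median of 0.40. Over all tested genes, 6.99% were higher and 11.6% were lower. Alb, albumin, rose by 0.56 ± 0.08 (SE, n = 4 per group, limma adjusted p = 0.00708), and both Trf, transferrin, by 0.57 ± 0.10 (limma adjusted p = 0.0101) and the vitamin D binding protein Gc by 0.46 ± 0.09 (limma adjusted p = 0.0147). Centred on the median of all probes, which shifted the median gene by -0.63, these 3 lay at -0.07, -0.05 and -0.17. The other tested probe of Trf differed by 0.03 and that of Gc by 0.18, and the calls were lost under 6 of 23 alternatives for Trf, 5 for Gc and 3 for Alb. Apoa4, an apolipoprotein of lipid absorption, fell by 1.35 ± 0.23 (limma adjusted p = 0.00990).

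**Figure D5:**
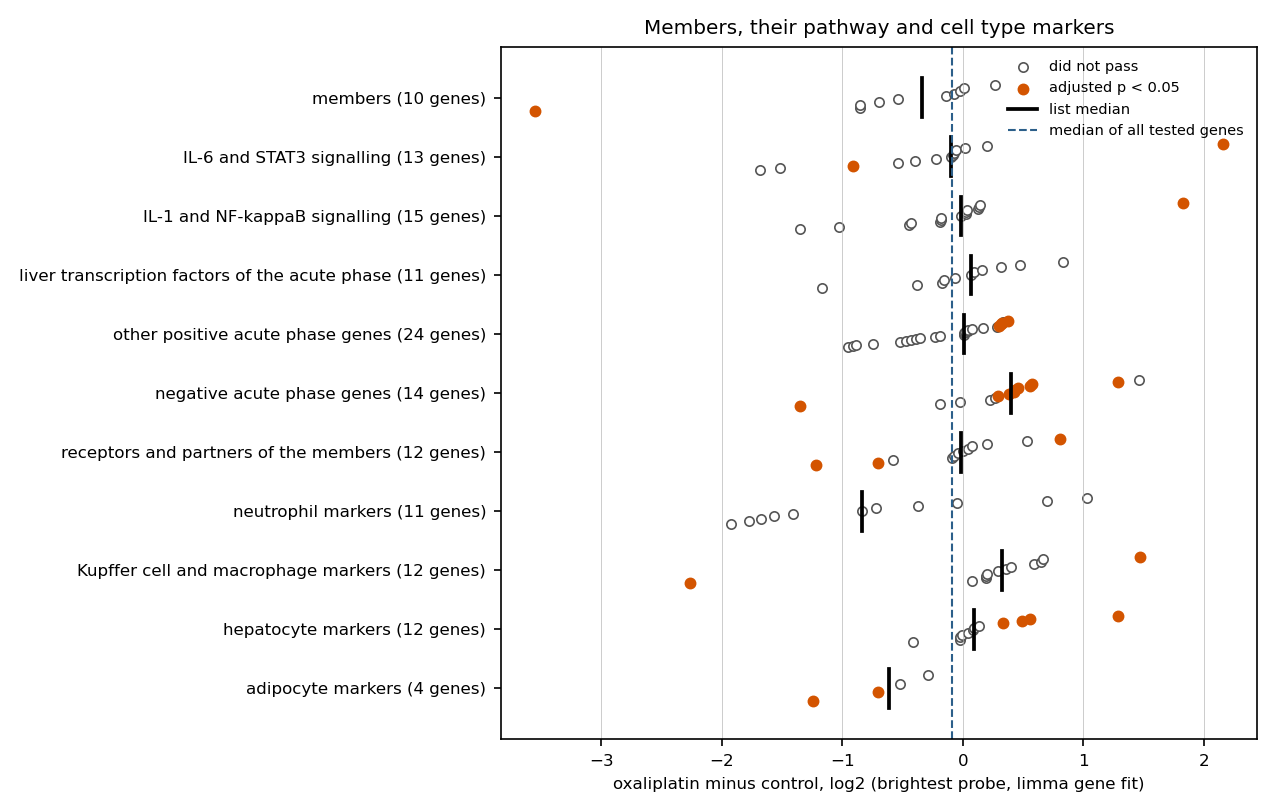
Difference in log2, oxaliplatin minus control, at the brightest probe of each gene (horizontal axis) in the members and in 10 lists (rows), with filled points for genes that passed the test, a bar at each list's median and a dashed line at the median of all tested genes, -0.09. Lcn2 is the far left point of the members, and the negative acute phase genes have a median of 0.40.

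Of 12 tested receptors and partners of the members, 1 was higher and 2 were lower, where 6.99% and 11.6% of all tested genes were. Cd36, a scavenger receptor that binds serum amyloid A, fell by 1.22 ± 0.26 (SE, n = 4 per group, limma adjusted p = 0.0186). Ager, the receptor for advanced glycation end products, fell by 0.71 ± 0.20 (limma adjusted p = 0.0454) and was above background on 2 of 4 oxaliplatin and 4 of 4 control arrays. Tlr4, a receptor of bacterial lipopolysaccharide, rose by 0.81 ± 0.21 (limma adjusted p = 0.0340). The calls were lost under 3 of 23 alternatives for Cd36, 19 of 22 for Ager and 13 of 23 for Tlr4, which was at 0.18 at its lowest. Hmox1, which degrades haem, had -0.58 ± 0.27 (limma adjusted p = 0.153).

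For the counts of cell type markers, the shares over all tested genes were 6.99% higher and 11.6% lower. Of 12 Kupffer cell and macrophage markers 11 had a positive difference, with a median of 0.33. The 1 that passed as higher was Csf1r, the receptor of macrophage colony-stimulating factor (1.47 ± 0.23, SE, n = 4 per group, limma adjusted p = 0.00740). The 1 with a negative difference, which also passed, was Marco, a scavenger receptor of macrophages (-2.26 ± 0.63, limma adjusted p = 0.0406). The Marco call was lost under 12 of 23 alternatives, among them quantile normalization, the series matrix values and leaving out any 1 control. Their summed level ran from 952 to 1942 on oxaliplatin arrays and from 906 to 1894 on control arrays. Clec4f and Vsig4, markers of Kupffer cells, had 0.59 ± 0.19 (limma adjusted p = 0.0623) and 0.65 ± 0.22 (limma adjusted p = 0.0711). Of 9 adipocyte markers 4 were tested, all 4 had a negative difference, with a median of -0.61, and 2 were lower: Fabp4, a fatty acid carrier (-1.24 ± 0.32, limma adjusted p = 0.0320), and Pparg, a regulator of fat cells (-0.70 ± 0.15, limma adjusted p = 0.0175). Their summed level ran from 32.4 to 56.1 on oxaliplatin arrays and from 65.4 to 116 on control arrays, while the defining adipocyte marker Adipoq was too dim to be tested. The part of macrophages and adipocytes in the Saa3 values was not tested. Of 12 hepatocyte markers 4 were higher, Alb (above), the protease inhibitor Serpina1e (0.49 ± 0.09, limma adjusted p = 0.0123), Pck1, an enzyme of glucose synthesis (0.34 ± 0.09, limma adjusted p = 0.0415), and Ttr, transthyretin (1.29 ± 0.36, limma adjusted p = 0.0425), and none was lower. Alb, Serpina1e and Pck1 lay below 0 when arrays were centred on the median of all probes. The calls were lost under 6 of 23 alternatives for Serpina1e, 18 for Pck1, 10 for Ttr, 8 for Fabp4 and 5 for Pparg.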

How the data were processed

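The deposited scanner files give fluorescence intensity, per the file headers the background-subtracted processed signal of Agilent Feature Extraction 12.0.3.1, while the submitters' processing notes name version 10.7 and limma. The deposited series matrix gives log2 values of 46867 probes, with normalization not given in the sources used here. Its columns had medians from 5.76 to 5.83 and correlated with the log2 processed signal within each array at r from 0.9964 to 0.9998; their scale is log2, and their centring stays unknown. Coordinates of catalogue probes are on build mm9, per the file headers.

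From these files, log2 processed signals were scaled by subtracting the 75th percentile of the array's 149782 non-control probes; outlier-flagged spots (115) were then left out. Probes well above background on at least 4 of 8 arrays were kept (54636), and a gene was represented by its brightest kept probe (13913 genes). Probes were named through a RefSeq gene table (47985 of 48257 curated accessions matched). Groups were compared with limma 3.58.1 in R 4.3.3 (lmFit and eBayes, residual degrees of freedom 6, Benjamini-Hochberg over all tested genes or probes, threshold 0.05). Single values were also compared by exact permutation with scipy 1.17.1. The number of arrays limits the precision. In simulated data with 200 of 13903 genes changed, limma recovered 71% of log2 changes of 1 and 87% of changes of 2. Of 171 calls, 13 were false. The simulated noise was independent, with the same SD in both groups of a gene and no slide or run effect. At the Lcn2 custom probe the SD was 2.14 on oxaliplatin and 0.40 on control arrays, so these rates do not carry over to single members.

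The members and lists were chosen with earlier results of these data known. The genes named are all members, for each list up to 4 genes with the smallest adjusted p and all that passed where 5 or fewer did, and the 3 genes most correlated with Lcn2, Saa1, Hp and Apcs. Camp and Ltf were named besides these, as neutrophil markers with a positive difference, and Prtn3 as the brightest neutrophil marker on oxaliplatin replicate 1. Hnf3b and Tf were not found by name. The alternatives covered background correction (normexp, offset 50), scaling, the series matrix, the dim-probe filter, how variances are modelled, which probe stands for a gene, each array left out, the run name and a replicate block. The comparison of probe pairs, the dimmest probe of a gene, centring on the tested probes and the joint omission of oxaliplatin replicates 3 and 4 were chosen after seeing the data. A slide term could not be fitted.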

Additional observations from a re-analysis of the deposited data

Results flagged for a closer look

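A single array stood apart from the other 3 of its group at 2 member probes, by a test that marks about 1 in 20 groups by chance. With 44 groups of 4 arrays examined, this number of marks is near what chance gives. Control replicate 4 was the lowest control at the brightest Saa1 probe, with a level of 10.78 where the other controls lay between 11.02 and 11.06. Control replicate 4 was the highest control at the Saa3 catalogue probe, with a level of 9.01 where the others lay between 8.74 and 8.77.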

How the results depend on the processing

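Limits: 4 mice per group and slides that hold 1 group each limit every value, and the uncalled members named below have no settled sign. Centring on the median of all probes, most of them dim, shifted the median gene by -0.63 and called 9918 genes; changes are best read relative to that shift. Leaving the dim-probe filter out moved the median by 0.18 and called 4114 genes, and scaling on detected probes moved it by 0.11. The cause of each change below was not tested, unless fewer arrays or genes explain it by construction.

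Against 1 member called lower, 8 were lower when centred on the median of all probes, 2 on the 6 arrays of 1 run name, and 0 without oxaliplatin replicates 3 and 4 (a choice made after seeing the data); leaving out 1 array gave 0 to 2. Against 2 member probes called lower, 4 were lower with normexp, 18 when centred on the median of all probes, 1 in the series matrix values, 5 with the run name as a covariate, 6 on the 6 arrays of 1 run name and 0 without oxaliplatin replicates 3 and 4, and leaving out 1 array gave 0 to 5. No member probe was called higher, except 1 (the Saa1 custom probe) without oxaliplatin replicate 4, so the range was 0 to 1. The 2590 called genes became 920 with the run name as a covariate, 515 on the 6 arrays of 1 run name, 166 without oxaliplatin replicates 3 and 4, and 1015 to 2335 when 1 array was left out.

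Arrays with the same replicate number did not vary alike: their deviations correlated at -0.32, -0.08, -0.09 and -0.23. Oxaliplatin and control arrays of different numbers ran from -0.39 to 0.44. Whether the numbers pair the mice cannot be decided from these values. With the replicate number as a block 0 members, 0 member probes and 529 genes were called by limma, and none of the 4 called probe pairs held.

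Of the uncalled members, some values turned sign. Centred on the median of all probes, Saa4 was at -0.36 and Hp at -0.62, and the probes of Saa1 (custom), Saa4 (catalogue at position 1680) and Hp (custom) were at -0.39, -0.55 and -0.46. In that scaling Tyk2 was at -0.43, Creb3l3 at -0.15, Serpina1a at -0.25, Fgg at -0.33, C3 at -0.30, Serpina3k at -0.31, Alb at -0.070, Trf at -0.054, Gc at -0.17, Clec4f at -0.035, Serpina1e at -0.14 and Pck1 at -0.29. Orm1 was at 0.026 when centred on the tested probes, and on detected probes Orm1 was at 0.084 and Orm3 at 0.037. Hp was at -0.016 with normexp, -0.23 with quantile normalization and -0.22 in the series matrix values, and its custom probe at -0.023, -0.046 and -0.0087, with -0.0070 for its distance from the catalogue probe with normexp. With the run name as a covariate, and likewise on the 6 arrays of 1 run name, Hp was at -0.16, Saa4 at -0.0080, the Saa1 custom probe at -0.092 and the Saa4 probe at position 1680 at -0.29. Without oxaliplatin replicates 3 and 4, Saa1 was at 0.014, Saa3 at 0.30, Orm1 at 0.21, Orm2 at 0.047, Orm3 at 0.23, Lipe at 0.026, the Saa2 custom probe at 0.18 and the Saa4 probe at position 582 at 0.057. At the dimmest probe Saa1 was at 0.24 and C3 at -0.90, and with the mean of probes C3 was at -0.037 and Lipe at 0.000109.

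With 1 array left out, Saa3 ran from -1.01 to 0.11, Orm1 from -0.12 to 0.068, Orm3 from -0.20 to 0.050, Hp from -0.054 to 0.073, the Saa2 custom probe from -0.49 to 0.10, and the Saa4 probes at positions 1680 and 582 from -0.16 to 0.30 and from -0.41 to 0.069. Lcn2 kept its direction under all 24 alternatives and its call under 16.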
